A study of Mus musculus with 96 samples.

Results

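The genes described here are the kinase Cdk1, the mitotic cyclins Ccnb1, Ccnb2, Ccna2 and Ccnf, and 5 enzymes that act on the kinase and its cyclins: Cdc25b, Cdc25c, Wee1, Pkmyt1 and Plk1. They are 10 of the 40202 genes in each count file and were chosen by name, with earlier results of these data known. On GRCm39, the build of the count files, Cdk1 spans chr10:69170976-69188742, Ccnb1 chr13:100915247-100922994, Ccnb2 chr9:70314971-70328836, Ccna2 chr3:36619014-36627187 and Ccnf chr17:24442204-24470383, all on the minus strand. Cdc25b spans chr2:131028356-131040431, Wee1 chr7:109721266-109742506, Pkmyt1 chr17:23945310-23955709 and Plk1 chr7:121758658-121769107, all on the plus strand, and Cdc25c lies on chromosome 18. All 10 passed the minimum of 5 CPM, as a mean of the groups, that was used for comparisons over all genes. CPM is the count of a gene per 1000000 counts, either of 1 cell or of all kept cells of a group summed.

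The cells were C10, an established lung line of the mouse, labelled as alveolar type II epithelial. Each of 96 libraries held the RNA of 1 sorted cell. The control group was 48 untreated cells, and the other group was 48 cells given RO-3306 at a labelled 10 nM for 36 h. This dose is far under those usual for the compound, and the files cannot settle whether the unit is as intended. RO-3306 is sold as an inhibitor of CDK1, and the files hold no measure of kinase activity. Both groups shared the same line and medium, the same sorter and SMART-seq v4, a kit that copies polyadenylated RNA over its length. The libraries come from a method, nanoSPLITS, that divides the contents of a cell so that protein can be measured too, so each library rests on part of the RNA of a cell. No label names separate cultures. Each treatment was therefore 1 sample, and no test between the groups could be made. All differences below are descriptions of these cells.

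A cell was kept with at least 50000 counts and 1000 genes, which left 29 control and 37 RO-3306 cells. Kept cells held 59979 to 6457215 counts in control (median 1753427) and 295005 to 5321880 in RO-3306 (median 2234309). For shares of cells and correlations, each cell was thinned to 639000 counts, a depth that 25 control and 34 RO-3306 cells reached. At that depth the median cell had 4553 genes with a count in control and 5959 in RO-3306. The titles place cells in sets lettered A to D, whose meaning is not given. The sets held 10, 8, 6 and 5 kept control cells and 10, 10, 11 and 6 RO-3306 cells. They show whether a difference has the same sign throughout and are not replicates. Mitochondrial genes took a median of 3.40% of the counts of a control cell and 4.42% of those of an RO-3306 cell, and 1 RO-3306 cell, B3, reached 56.0%.

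The labelled cell type was not borne out by its markers. Of 6 alveolar type II markers, Sftpa1, Sftpc, Sftpd and Slc34a2 were at 0 in every kept cell, and the list summed to 0.227 CPM in control against 0.194 CPM in RO-3306. The 6 epithelial markers (Epcam, Cdh1, Krt8, Krt18, Krt19, Cldn4) summed to 1.78 CPM in control against 0.978 CPM in RO-3306. Any of them was counted in 10 of 29 control and 14 of 37 RO-3306 cells, with at most 396 and 48.2 CPM in a single cell. The mesenchymal list (Col1a1, Col3a1, Vim, Fn1, Acta2, Cdh2) was detected in all 66 cells, at 5579 CPM in control against 2523 CPM in RO-3306, with 1329 to 11354 and 1263 to 13886 CPM over single cells. The 5 macrophage markers summed to 31.3 CPM in control, where Ptprc was at 0, and to 336 CPM in RO-3306, where Adgre1 and Csf1r were at 0. Over single cells that list ran from 0 to 253 CPM in control and from 0 to 860.1 CPM in RO-3306. The part of these differences in the results below was not tested.

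Entry into mitosis is driven by CDK1, a kinase that is active only when bound to a cyclin. Cyclin A2 partners it in late S phase and G2, and cyclins B1 and B2 partner it at mitotic entry. WEE1 and PKMYT1 hold the complex inactive by phosphorylating the kinase, and phosphatases of the CDC25 family remove those phosphates. PLK1 promotes this switch by acting on both sides of it, and cyclin F is the substrate receptor of a ubiquitin ligase active in G2. In cycling cells the transcripts of most of these genes accumulate towards G2 and mitosis, so their level in a single cell depends on where that cell stands in the cycle. Promoters of such genes often carry CCAAT boxes, bound by the factor NF-Y, and a cell cycle homology region, a short element bound by complexes that repress transcription in resting cells and activate it in G2.

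Promoter windows were available for 6 of the 10 genes (Cdk1, Ccnb1, Ccnb2, Ccnf, Cdc25b and Plk1) in the RefSeq table, on GRCm38.p6. This build differs from that of the count files, and no coordinate was carried between them. Each window runs from 250 bases before the start of the gene to 50 bases after it. Both strands were searched for CCAAT, for the homology region written TTTGAA or TTCGAA, and for an E2F site written TTTCGCGC or TTTGGCGC. The 150 bases just before the start are printed for the kinase and 3 cyclins, 5′ to 3′ on the strand of the gene, since these 4 windows hold 2 or more CCAAT boxes each. Capitals mark the matches, and ATTGG is CCAAT on the other strand.
Cdk1 (chr10:69352913-69353062, minus strand): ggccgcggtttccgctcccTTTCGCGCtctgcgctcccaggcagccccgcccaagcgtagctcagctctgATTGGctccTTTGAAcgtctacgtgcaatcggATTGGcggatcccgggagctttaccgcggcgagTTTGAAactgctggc
Ccnb1 (chr13:100786487-100786636, minus strand): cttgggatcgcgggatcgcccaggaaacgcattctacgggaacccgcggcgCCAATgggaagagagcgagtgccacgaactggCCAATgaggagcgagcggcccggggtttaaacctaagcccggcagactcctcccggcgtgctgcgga
Ccnb2 (chr9:70421555-70421704, minus strand): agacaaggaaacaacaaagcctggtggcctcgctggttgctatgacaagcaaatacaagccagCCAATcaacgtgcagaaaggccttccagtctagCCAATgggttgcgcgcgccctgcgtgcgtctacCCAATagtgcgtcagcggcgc
Ccnf (chr17:24251410-24251559, minus strand): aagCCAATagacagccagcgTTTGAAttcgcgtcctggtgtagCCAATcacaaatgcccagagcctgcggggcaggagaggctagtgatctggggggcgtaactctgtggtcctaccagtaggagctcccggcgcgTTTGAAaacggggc

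All 6 windows held CCAAT, which 37.4% of the 32851 windows in the table held. The homology region was present in 5 of 6, all but Ccnb1, against 19.2% of all windows. The E2F letters were found in 1 of 6, Cdk1, against 0.813% of all windows. With negative positions counted back from the start of the gene, the boxes of Cdk1 began at -80 and -48, a spacing of 32 bases, with a further box at -208. Those of Ccnb1 began at -99 and -67, also 32 bases apart, and those of Ccnb2 at -87, -54 and -21, each 33 bases from the next. The pair in Ccnf was 40 bases apart. The windows of Cdk1, Ccnb2 and Ccnf held the homology region at 2 places each, with the one nearest the start at -15 in Cdk1, at -14 in Ccnf and at 5 in Ccnb2, which lies past the printed stretch. No matches overlapped. These matches describe letters in a window, and nothing in the count files measures binding there.

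Set beside one another per kilobase of mRNA (the longest coding transcript in GENCODE), the 10 genes spanned a wide range of levels. In control, Ccnb2 led at 157 CPM per kilobase, followed by Cdk1 at 129, Ccnb1 at 98.3, Ccna2 at 54.6, Plk1 at 49.4 and Pkmyt1 at 30.7. Ccnf, Cdc25c and Cdc25b lay close together at 12.8, 12.6 and 11.2, and Wee1 was lowest at 3.45. In RO-3306 the order at the top was Ccnb2 at 270.6, Cdk1 at 115 and Ccnb1 at 100.2, and Wee1 was again lowest at 1.5. Cdc25b was ninth of 10 in control and stood at 26.2 in RO-3306, between Ccna2 at 29.7 and Plk1 at 20.4. Since counts were taken over whole gene spans, introns included, these levels are approximate.

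**Figure D1:**
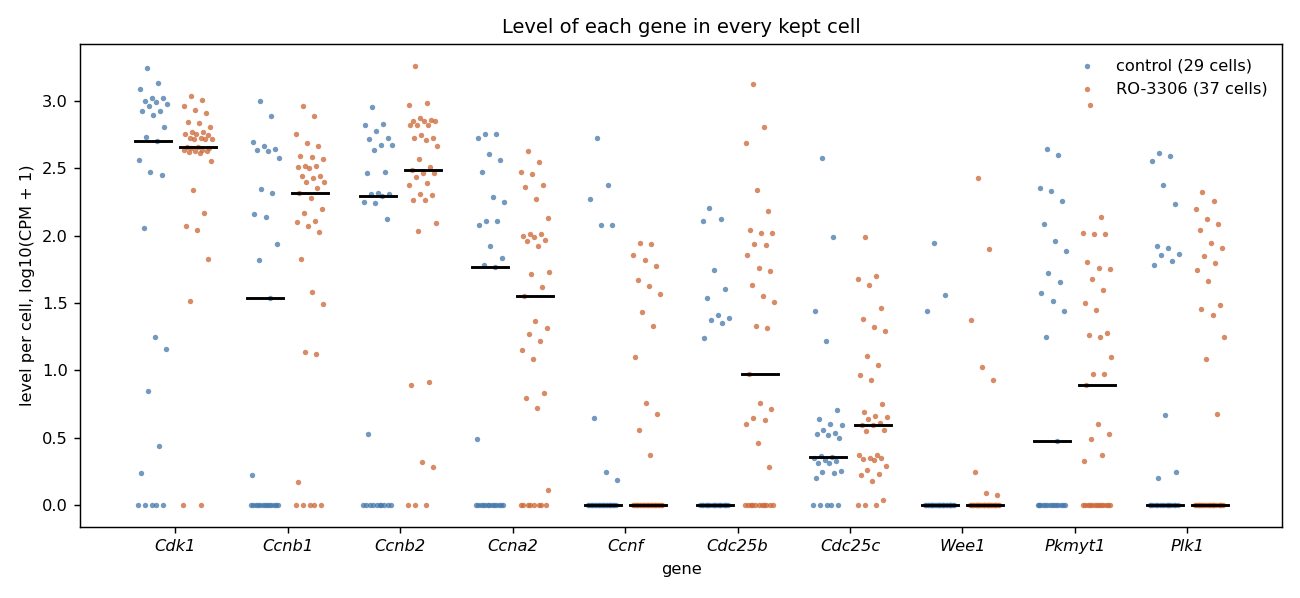
Level of each gene in every kept cell, as log10 of CPM plus 1, with 29 control cells in blue and 37 RO-3306 cells in orange and a bar at the median of each group. Cdk1 sits high in most cells of both groups, the B-type cyclins have fewer cells at 0 in RO-3306, and Ccnf, Wee1 and Plk1 have medians at 0 in both.

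Cdk1, the catalytic subunit, was the most evenly expressed of the 10. Per cell it ran from 0 to 1764 CPM in control, with a median of 500.5, and from 0 to 1087 CPM in RO-3306, with a median of 457. The groups overlapped, but control cells B2 (1352 CPM), B10 (1224 CPM) and B12 (1764 CPM) lay above every RO-3306 cell. Summed over cells it was 564 CPM (95% Poisson interval 559 to 570.1) in control and 504 CPM (499.7 to 509) in RO-3306, a log2 ratio of -0.16. These intervals, like all those given here, cover counting error only, and without molecular identifiers PCR copies are counted as if independent. The ratio was 0.13, -0.99, 0.34 and 0.11 in sets A to D, so its sign was not shared. What differed more was the spread. Over cells at equal depth the coefficient of variation (the SD over the mean) was 0.872 in control and 0.538 in RO-3306. This coefficient was also lower in RO-3306 for 81.8% of the 3702 genes at or above 50 CPM. Over all kept cells the lowest 25% of Cdk1 values lay at or below 6.04 CPM (control) and 408 CPM (RO-3306 cells).

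Cdk1 was counted in 20 of 25 control cells at equal depth (80%, exact Clopper-Pearson interval 59.3 to 93.2%) and in 33 of 34 RO-3306 cells (97.1%, 84.7 to 99.9%). At full depth the numbers were 24 of 29 and 35 of 37. The control cells without a count were A7, A8, A12, C3 and D9. Of these, D9 was deep, at 3275478 counts, and held Ccnb2 at 665 CPM, Ccna2 at 128.5 CPM and Pkmyt1 at 122 CPM, while A12, at 176892 counts, held none of the 10 genes but Ccnb2. C3 held none of the 10. The RO-3306 cells without Cdk1 were B3, the cell with 56.0% mitochondrial counts, and C11, which had the highest Ccnb2 (1823 CPM) and Cdc25b (1340 CPM) of any cell and only 2159 genes with a count.

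The cyclin with the steadiest difference was Ccnb2, which encodes cyclin B2. Per cell it ran from 0 to 901 CPM in control (median 197) and from 0 to 1823 CPM in RO-3306 (median 306). Its sum was 240.5 CPM (237 to 244) in control and 414 CPM (410.2 to 418.5) in RO-3306, a log2 ratio of 0.78. It was higher in RO-3306 in all 4 sets, by 0.79, 0.84, 0.29 and 0.61. Over all 9374 genes of at least 5 CPM, 13% were higher in the sum and in all 4 sets, and the ratio of Ccnb2 stood at percentile 84.2 of those genes. Ccnb2 was counted in 17 of 25 control cells at equal depth (68%, 46.5 to 85.1%) and 31 of 34 RO-3306 cells (91.2%, 76.3 to 98.1%).

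Ccnb1, which encodes cyclin B1, had nearly equal sums of 245 CPM (241 to 248) in control and 249.5 CPM (246 to 253) in RO-3306, a log2 ratio of 0.03. Its distribution over cells was not equal. The median cell held 33.3 CPM in control against 206 CPM in RO-3306, within ranges of 0 to 1002 and 0 to 916 CPM. Ccnb1 was counted in 15 of 25 control cells (60%, 38.7 to 78.9%) and 30 of 34 RO-3306 cells (88.2%, 72.5 to 96.7%) at equal depth. The control sum leaned on few cells, with B4, the deepest cell at 6457215 counts, supplying 31.03% of it. The sets went different ways, at 1.35, -0.89, 1.47 and -0.18. Of libraries with a Ccnb1 count, 72.9% held a fractional value, the mark of reads placed at several sites. Its pseudogene Ccnb1-ps summed to 2.20 CPM in control against 2.39 CPM in RO-3306, and adding it to Ccnb1 left the ratio at 0.03.

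Ccna2, which encodes cyclin A2, was lower in RO-3306 although more of those cells held it. Per cell it ran from 0 to 569 CPM in control (median 57.9) and from 0 to 423 CPM in RO-3306 (median 34.9). The sums were 162 CPM (159 to 165) and 88.0 CPM (86.1 to 89.9), a log2 ratio of -0.87. The ratio was below 0 in every set, at -0.81, -0.17, -0.94 and -1.46, as it was for 10.3% of all genes. Its count was present in 14 of 25 control cells (56%, 34.9 to 75.6%) and in 28 of 34 RO-3306 cells (82.4%, 65.5 to 93.2%), so the lower sum came with more cells at lower levels. Of the Ccna2 gene span, 10.6% overlaps Exosc9, where reads over both genes would not be counted under the default settings of the counter.

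Ccnf was sparse. It was 0 in the median cell of both groups and reached 535 CPM in control cell C1 and 86.8 CPM in RO-3306 cell B9. Sums were 52.8 CPM (51.1 to 54.6) and 17.7 CPM (16.9 to 18.6), a log2 ratio of -1.52, but set A was above 0 (1.21) and sets B and C below (-2.56 and -3.82). In set D the sum was 17.5 CPM in RO-3306 with no count in control. Without set A the ratio was -2.54 and without set B -0.68. At equal depth 7 of 25 control cells (28%, 12.1 to 49.4%) and 15 of 34 RO-3306 cells (44.1%, 27.2 to 62.1%) held the gene. A few control cells with high values thus made its control sum, and cell B4 alone gave 34.7% of it.

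**Figure D2:**
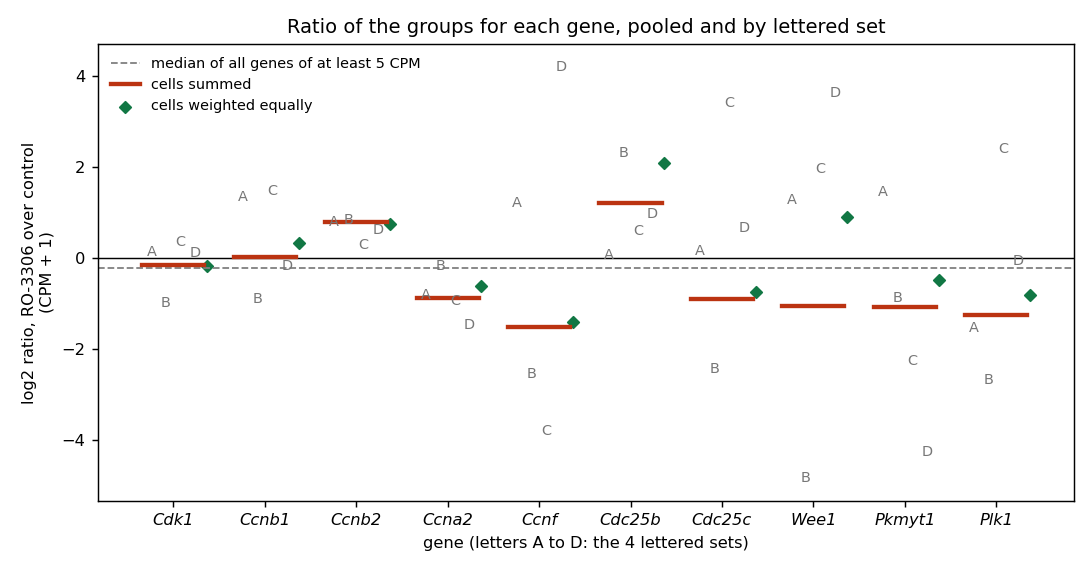
Log2 ratio of RO-3306 over control for each gene, with 1 CPM added to both, for summed cells (red bars), for cells weighted equally (green diamonds) and for each lettered set (letters). The letters of Ccnb2 and Cdc25b all lie above 0 and those of Ccna2 all below, whereas the letters of the other 7 genes fall on both sides of 0, a set without a count in a group is drawn from the added 1 CPM, and the dashed line marks the median of all genes at -0.22.

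Of the activating phosphatases, Cdc25b was higher in RO-3306. Per cell it ran from 0 to 160 CPM in control, with a median of 0, and from 0 to 1340 CPM in RO-3306, with a median of 8.30. The sums were 34.6 CPM (33.2 to 36.0) and 80.8 CPM (79.0 to 82.7), a log2 ratio of 1.20 at percentile 90.4 of all genes. It was the only member with a log2 ratio of at least 1 and a positive sign in all sets, a rule that 7.23% of all genes met. The set values were 0.06, 2.32, 0.59 and 0.96, so set A differed little and set B most. RO-3306 cell B5 supplied 35.6% of the RO-3306 sum and control cell B4 37.4% of the control sum, and without both the ratio was 1.15. Without set B it was 0.45. Cdc25b was counted in 10 of 25 control cells (40%, 21.1 to 61.3%) and 23 of 34 RO-3306 cells (67.6%, 49.5 to 82.6%).

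Cdc25c gave a different picture, because most of its counts were very low. It was counted in 20 of 25 control and 26 of 34 RO-3306 cells at equal depth, yet in only 4 and 11 cells with at least 5 counts. The median cell held 1.26 CPM in control against 2.93 CPM in RO-3306. Of the libraries with a Cdc25c count, 51.7% held a fractional value, so part of these low counts came from reads that had several sites. The highest cells were control B1 at 379.6 CPM and RO-3306 C8 at 97.2 CPM. The sums of 24.6 CPM (23.4 to 25.8) and 12.8 CPM (12.04 to 13.5) had a log2 ratio of -0.90, but B1 supplied 58.9% of the control sum, and without the top cell of each group the ratio was -0.17. The ratio was above 0 in 3 sets and below 0 in set B alone, and without set B it was 1.92.

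The inhibitory kinases were lower in the RO-3306 sum, without a shared sign over the sets. Pkmyt1 ran from 0 to 437 CPM per control cell (median 1.99) and from 0 to 926 CPM per RO-3306 cell (median 6.78). Its sums were 62.6 CPM (60.7 to 64.5) and 29.03 CPM (27.9 to 30.1), a log2 ratio of -1.08. It was higher in RO-3306 in set A (1.46) and lower in sets B, C and D (-0.88, -2.27 and -4.27). With cells weighted equally the ratio was -0.47, and without set A it was -1.93. A count was present in 14 of 25 control and 21 of 34 RO-3306 cells at equal depth. The highest RO-3306 cell, A11 at 926 CPM, had 18.1% mitochondrial counts and held Cdk1 at 687 CPM and no other member.

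Wee1 was the rarest of the 10. At equal depth 3 of 25 control cells (12%, 2.55 to 31.2%) and 4 of 34 RO-3306 cells (11.8%, 3.3 to 27.5%) held a count. Sums were 11.8 CPM (11 to 12.7) and 5.14 CPM (4.70 to 5.63), and B4 alone gave 72.5% of the control sum. The log2 ratio of -1.06 turned to 0.90 when cells were weighted equally and to 1.56 without set B. Its direction was thus set by which cells were counted, and a difference in Wee1 was not detectable at this depth. Taken as a pair, the inhibitory kinases were at 0 in 13 of 29 control and 12 of 37 RO-3306 cells, and the median summed level was 16.7 and 11.6 CPM. The CDC25 pair was at 0 in 4 and 2 cells, with medians of 2.44 and 28.4 CPM.

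Plk1, the polo-like kinase, was counted in nearly the same share of cells in each group, 12 of 25 in control (48%, 27.8 to 68.7%) and 17 of 34 in RO-3306 (50%, 32.4 to 67.6%). In cells it ran from 0 to 409 CPM in control and from 0 to 211 CPM in RO-3306, with a median of 0 in both. The sums were 109 CPM (106 to 111) and 44.8 CPM (43.5 to 46.2), a log2 ratio of -1.26. Set C went the other way at 2.396, and the others were -1.55, -2.68 and -0.06. Control cells A1, B1, B2, B4 and B6 all held Plk1 above 170 CPM, at 355, 391, 235, 172 and 409 CPM, which placed 4 of these 5 in set B. Without set B the ratio was -0.30.

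As a list, the 10 genes had a median log2 ratio of -0.88, with 3 above 0 and 7 below, beside a median of -0.22 and 3848 above and 5526 below for all 9374 genes. The list median was 0.47, -0.94, 0.47 and 0.36 in sets A to D, so only set B had a negative median, and without that set the list median was 0.32 with 6 genes above 0. The set medians of all genes were -0.08, -0.26, 0.41 and 0.24. With the sign shared by all sets and by the sum, 2 members were higher (Ccnb2 and Cdc25b) and 1 was lower (Ccna2), beside 13% and 10.3% of all genes, so the share that was lower equalled the background. None had a log2 ratio of -1 or lower with a shared sign, which 6.43% of all genes had. The ratios of Ccnf, Wee1, Pkmyt1 and Plk1 were at or below -1 in the sum, but each was above 0 in at least 1 set. TMM and DESeq2 size factors scale the groups apart by 0.21 and 0.24 on the log2 scale, before 1 CPM is added. They raised all 10 ratios, which turned the sign of Cdk1 to 0.05 and 0.07 and of no other member.

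Detection was higher in RO-3306 for most members, as it was for most genes. At equal depth 8 of 10 genes were counted in a larger share of RO-3306 cells, against 71.5% of all genes, so this count stood near the background. The median difference was 16.6 percentage points against 9.06 for all genes. Without set A the median over all 10 members was 7.45 points, against 8.17 points for all genes, and 6 members were counted in a larger share of RO-3306 cells. A difference of at least 20 points was seen for 4 members, Ccnb1 (28.2), Cdc25b (27.6), Ccna2 (26.4) and Ccnb2 (23.2), and for 27.3% of all genes. No member was counted in a share lower by 20 points, as 2.08% of all genes were. The members below 0 were Cdc25c, at -3.53 points, and Wee1, at -0.24, and both depended on the thinning. With another random seed they were at 4.47 and 2.71 points, and at full depth at 9.13 and 11.3, which put all 10 genes above 0. The median number of genes per cell at this depth was also higher in RO-3306, 5959 against 4553, and its part in these shares was not tested. The cyclins lay at percentiles 78.2 (Ccnb2), 83.0 (Ccna2), 85.1 (Ccnb1) and 65.5 (Ccnf) of the detection differences of all genes.

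**Figure D3:**
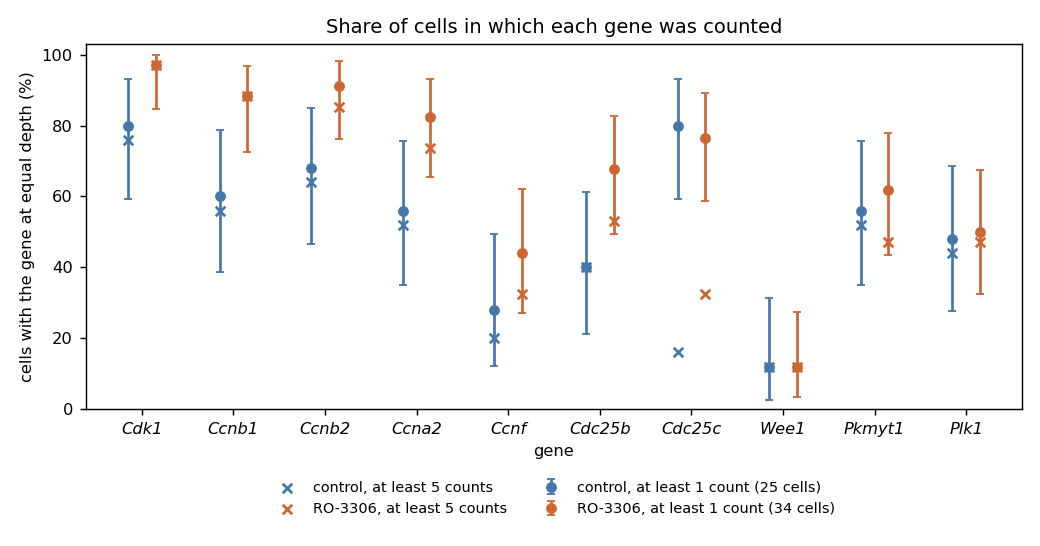
Share of cells at equal depth in which each gene had a count, in percent, for 25 control cells (blue) and 34 RO-3306 cells (orange), with 95% Clopper-Pearson intervals (counting error only) and crosses for the share with at least 5 counts. Cdk1 and the cyclins have their points higher in RO-3306, Wee1 and Plk1 nearly level points, and the crosses of Cdc25c lie far below its points.

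Over cells, 8 of the 10 genes varied less in RO-3306. The coefficient of variation of Ccnb1 was 1.33 in control and 0.899 in RO-3306, that of Ccnb2 1.07 and 0.857, and that of Plk1 1.71 and 1.51. Cdc25b (1.80 and 2.52) and Wee1 (3.33 and 4.15) varied more. A lower variation in RO-3306 held for 81.8% of the 3702 genes at or above 50 CPM, so a count of 8 in 10 stood near that share. That background holds no genes as low as Ccnf, Pkmyt1, Cdc25c and Wee1, each below 50 CPM as a mean of the groups.

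The cells of the RO-3306 group also held more of the 10 genes each. At equal depth a control cell held 2 to 10 of the genes with a median of 5, and an RO-3306 cell held 1 to 10 with a median of 7. Of control cells 8 of 25 held 3 or fewer and 11 held 6 or more, against 4 and 24 of 34 RO-3306 cells. Counted over all genes, the median cell at that depth also held more in RO-3306, 5959 against 4553. The part of this in the number of members per cell was not tested. The level of all 10 summed ran from 0 CPM (C3) to 3154 CPM (B2) in control, with a median of 1153, and from 13.6 CPM (B3) to 3944 CPM (C11) in RO-3306, with a median of 1470.

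The kinase and its B-type cyclins were found together in more RO-3306 cells. Cdk1 with Ccnb1 or Ccnb2 was counted in 16 of 25 control cells (64%, 42.5 to 82.0%) and in 32 of 34 RO-3306 cells (94.1%, 80.3 to 99.3%). Cdk1 without either cyclin was seen in 4 control cells and 1 RO-3306 cell, and a B-type cyclin without Cdk1 in 5 and 1. All of Cdk1, Ccnb1, Ccnb2 and Ccna2 were present in 8 of 25 control cells (32%, 14.9 to 53.5%) and 26 of 34 RO-3306 cells (76.5%, 58.8 to 89.3%). Dropping set B put this share at 17.6% in control and 80% in RO-3306. Dropping set A put it at 37.5% and 73.1%. For Cdk1 with a B-type cyclin the gap was narrower once set A was dropped, at 81.25% of control and 96.2% of RO-3306 cells. It was wider with set B dropped, at 52.9% and 92%. The B-type cyclins were found as a pair in 11 control and 28 RO-3306 cells, and 4 control cells held Ccnb1 alone while 6 held Ccnb2 alone. These counts follow from the shares of the single genes as well as from any tie between them. At equal depth 71.5% of all genes of at least 5 CPM were counted in a larger share of RO-3306 cells. The part of that general difference in these counts was not tested.

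In both groups the kinase was counted with an inhibitory kinase in fewer cells than with a B-type cyclin. Cdk1 with Wee1 or Pkmyt1 was counted in 13 of 25 cells of the control (52%) and 21 of 34 RO-3306 cells (61.8%), so in 7 and 12 cells the kinase was counted without either inhibitor. Cdk1 with Cdc25b or Cdc25c was counted in 16 and 28 cells, in control as many as with a B-type cyclin. Most Cdc25c counts were low, with at least 5 in only 4 control and 11 RO-3306 cells. Plk1 and Ccnb1 were counted together in 9 and 17 cells. All 17 RO-3306 cells with Plk1 also held Ccnb1, whereas 3 of the 12 control cells with Plk1 did not.

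**Figure D4:**
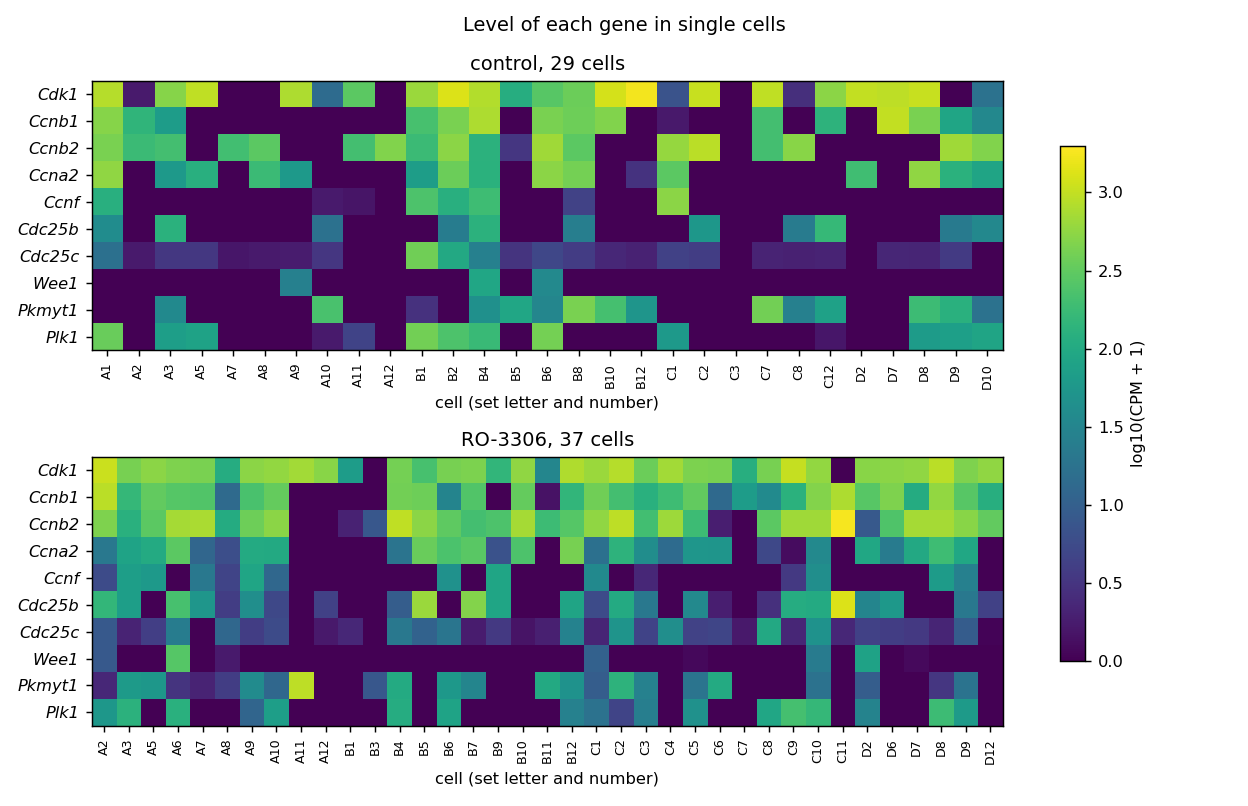
Level of each gene (rows) in every kept cell (columns, named by set letter and number) as log10 of CPM plus 1, with 29 control cells above and 37 RO-3306 cells below. Control columns such as C3 and A12 are dark for nearly every gene, the Cdk1 and Ccnb2 rows are lit in most RO-3306 columns, and the Wee1 row is dark in nearly all.

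Correlations across cells at equal depth are given as Spearman's rho of CPM and as a description only. The cells of a group share their preparation and, beyond the thinning, differ in the depth they started from. Over the 45 pairs of members the median rho was 0.17 in control (from -0.30 to 0.70, 36 pairs above 0) and 0.23 in RO-3306 (from -0.08 to 0.59, 43 above 0). The order of these medians was not stable, since another random thinning gave 0.24 in control and 0.19 in RO-3306. Without set B the control median was 0.10. The median over 6285285 pairs of the 3546 background genes, those counted in 50% or more of the cells in each group, was 0.03 in control and 0.02 in RO-3306. Of the members, 6 reached that share of cells (Cdk1, Ccnb1, Ccnb2, Ccna2, Cdc25c and Pkmyt1), and their 15 pairs had medians of 0.14 and 0.24.

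The pairs of the kinase and its cyclins had the following values. Cdk1 and Ccnb1 had a rho of 0.39 in control and 0.38 in RO-3306. Cdk1 and Ccnb2 had -0.30 in control, where 8 cells held Cdk1 without Ccnb2 and 5 the reverse, and 0.45 in RO-3306. Over the alternatives run this pair stayed between -0.42 and -0.15 in control and between 0.06 and 0.51 in RO-3306, the low end being Pearson's r of log2 values. For Ccnb1 and Ccnb2 the values were 0.03 and 0.59, the highest pair in RO-3306, with ranges of -0.29 to 0.21 and 0.52 to 0.69 over the alternatives. In control the highest pairs involved Plk1, with 0.70 for Cdc25c, 0.67 for Ccna2 and 0.57 for Ccnf, and the same pairs had 0.40, 0.23 and 0.42 in RO-3306. For Cdc25c another thinning gave 0.62 in control and 0.27 in RO-3306. The level of Plk1 in control also went with the total count of the cell before thinning (rho 0.55), as did that of Cdc25c (0.57), and the part of depth in these pairs was not tested. In control Pkmyt1 lay between -0.21 (with Ccnb2) and 0.22 (with Ccnb1) for every member.

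**Figure D5:**
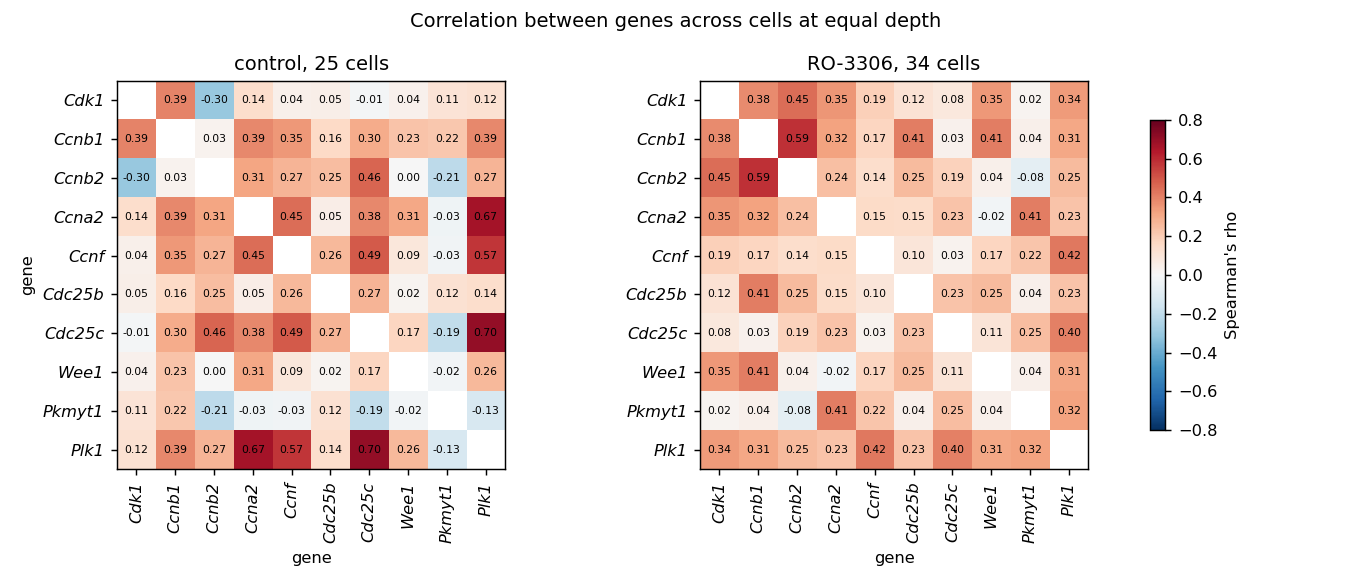
Spearman's rho between each pair of the 10 genes across 25 control cells (left) and 34 RO-3306 cells (right) thinned to equal depth, on a colour scale from blue below 0 to red above 0. The Plk1 column is darkest in control, and the block of Cdk1, Ccnb1 and Ccnb2 is darker in RO-3306, where Cdk1 with Ccnb2 is 0.45 against -0.30 in control.

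For each of these 6 members the 3 most alike genes were taken by the mean of rho in the groups, among 2895 genes of at least 50 CPM that were counted in 50% or more of the cells in each group. Nearest to Cdk1 were Nusap1 (0.67 in control and 0.54 in RO-3306), a microtubule-binding protein of the spindle, Hat1 (0.52 and 0.60), a histone acetyltransferase, and Ube2c (0.58 and 0.51), which works with the anaphase-promoting complex. Nearest to Ccnb1 were Tuba1c (0.62 and 0.56), Kpna2 (0.56 and 0.59) and Racgap1 (0.49 and 0.64), which encode an alpha-tubulin, an importin and a cytokinesis factor. Ccnb2 had Cenpa (0.46 and 0.64), the histone H3 variant of centromeres, then Lockd (0.34 and 0.52) and Cdca3 (0.50 and 0.34). Ccna2 had Racgap1 (0.70 and 0.48), Jak1 (0.45 and 0.56) and Sgo1 (0.57 and 0.42), whose product protects cohesion at centromeres. The lists of Pkmyt1 (Nit2, Mcm7 and Nudcd2, mean rho 0.49, 0.46 and 0.45) and Cdc25c (Atp5k, Lasp1 and Fnta, mean rho 0.47, 0.45 and 0.45) included Mcm7, a subunit of the replicative helicase. With 25 and 34 cells, ranks among so many genes are loosely fixed.

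Of 31 other genes of the pathway, 27 reached 5 CPM. Their median log2 ratio was 0.07, with 15 above 0 and 12 below, and 5 were higher (Cdkn1a, Ube2c, Ube2s, Cks2 and Mnat1) and 3 lower (Cdc25a, Fbxo5 and Chek2) in all 4 sets. The shares over all genes were 13% and 10.3%, so the count of lower genes stood at the background. Among CDK inhibitors and CDC25A, Cdkn1a, which encodes the inhibitor p21, was 78.9 CPM in control against 287 CPM in RO-3306 (log2 ratio 1.85) and was counted in 14 of 25 and 33 of 34 cells. Cdc25a, the phosphatase of the G1 and S phases, was 26.2 and 0.980 CPM (-3.78), from 6 of 25 and 4 of 34 cells. Both had the same sign in all 4 sets. Gadd45a, a stress gene whose product can bind CDK1, was 62.6 and 134 CPM (1.08), with set A the other way at -1.02.

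The genes that destroy mitotic cyclins were mixed. Ube2c (647 and 1246 CPM, log2 ratio 0.94) and Ube2s (36.0 and 73.1 CPM, 1.001), the ubiquitin-conjugating enzymes of the anaphase-promoting complex, were higher in RO-3306 in all 4 sets. Fbxo5, an inhibitor of that complex, was lower in all 4 (108 and 58.7 CPM, -0.87), with 26.03% of its span overlapped by another gene. Its activators Cdc20 (123 and 141 CPM) and Fzr1 (105.5 and 70.5 CPM) had no shared sign. Upstream of the switch, Aurka, the kinase that activates PLK1, was 147 and 238 CPM (0.69, with set B at -0.20) and was counted in 11 of 25 control and 29 of 34 RO-3306 cells. Chek2, a checkpoint kinase, was lower in all 4 sets (76.6 and 42.2 CPM, -0.84).

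The small CDK-binding proteins Cks1b (832 and 1008 CPM) and Cks2 (283 and 299.98 CPM) were counted in 24 of 25 control cells and all 34 RO-3306 cells, a larger share in each group than any member reached. Many of their counts were fractional, in 54.7% of libraries with Cks1b and 87.1% of those with Cks2. On the phosphatase side Ensa, whose product inhibits PP2A once phosphorylated, was 70.5 and 158 CPM (1.15), with sets A and D below 0. Among transcription factors Lin9, a subunit of the MuvB core, was 71.5 and 19.3 CPM (-1.84) and Mybl2 10.7 and 4.33 CPM (-1.13), neither with a shared sign, and Foxm1 was 7.21 and 13.1 CPM. Nfyb was at 0 in all cells, and the whole span of the gene overlaps Hcfc2, where the default settings of the counter leave reads unassigned. Ccna1, the germline cyclin A, had no count in either group, and Ccnb3 stayed at or under 0.01 CPM.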

How the data were processed

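RNA was measured in single cells. Per the submitters' processing notes, reads passed FastQC and STAR (versions not given). Per the file headers, the deposited values are expected counts per gene, made by the authors with featureCounts 2.0.3 over whole gene spans of the GRCm39 RefSeq annotation, with a read placed at several sites split into equal fractions. No strand or overlap option is recorded, so by default strand is ignored and reads over 2 genes are left out. A count over 1e-06 from a whole number was called fractional.

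Members and lists were chosen with earlier results of these data known. Named genes were all members, a fixed list of 31 pathway genes and the 3 most alike genes of each widely detected member. The log2 ratios were computed on the log2(CPM + 1) scale, which understates changes of low genes. Counts were rounded for intervals and thinning (percentile 10 of kept totals, rounded down). mRNA lengths came from GENCODE M21 by symbol. Kept libraries included 0 identical ones. Libraries came from single sorted cells, and doublets were not called. Alternatives were other cell filters, lettered sets left out, TMM (edgeR 4.0.16) and DESeq2 1.42.0 factors in R 4.3.3, equal weight of cells, other depths, seeds and pseudocounts. Added after seeing the data were the sum of Ccnb1 with its pseudogene, the coefficients of variation, the counts of Cdk1 with its partners, and the alternatives for single pairs and for detection over all genes. The log2 ratios of summed cells were tested on simulated counts. Rank correlation and the thinned depth were checked separately. Shares of cells, signs over the sets and counts of genes found together were not tested in this way. Python 3.11.15, numpy 2.4.6, pandas 2.3.3, scipy 1.17.1 and matplotlib 3.10.9 were used.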

Additional observations from a re-analysis of the deposited data

Results flagged for a closer look

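Libraries under the cell filter (19 control with 341166 counts in all and 11 RO-3306 with 1162603 counts) entered no comparison, and 3 members had more there in RO-3306 than the control libraries could show. Ccna2 reached 284 CPM, Plk1 54.2 CPM and Ccnb2 34.4 CPM in the summed RO-3306 libraries, against no count in the control ones, where 3 counts of the total allow up to 8.79 CPM. Each value rested mostly on 1 library. RO-3306 D10, with 743 genes, gave 327 of the 330 Ccna2 counts. RO-3306 C12, with 84.5% mitochondrial counts, gave all 63 Plk1 counts. RO-3306 D5, with 87.3% mitochondrial counts, gave 35 of the 40 Ccnb2 counts. The remaining members lay at 0 to 6.88 CPM in the RO-3306 libraries and at 0 to 8.79 CPM in the control libraries.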

How the results depend on the processing

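The median log2 ratio of the 10 genes, -0.88 as reported, was -1.13 without set A, 0.32 without set B, -0.68 without set C and -0.69 without set D. It was -0.68 with TMM factors, -0.66 with DESeq2 size factors, -0.32 with cells weighted equally, -0.66 thinned before summing, -0.73 with a pseudocount of 5 CPM and -0.27 without the top cell of each gene. The number of genes above 0, which was 3, became 6 without set B. The cause was not tested.

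The ratios of Ccnb2 (0.66 to 1.02), Ccna2 (-1.21 to -0.59) and Cdc25b (0.45 to 2.09) kept their sign in all alternatives run. Those of Ccnf (-2.54 to -0.68), Pkmyt1 (-1.93 to -0.47) and Plk1 (-1.75 to -0.30) also did, though with sets on both sides of 0. Cdk1 (-0.30 to 0.19), Ccnb1 (-0.42 to 0.82), Cdc25c (-2.04 to 1.92) and Wee1 (-1.77 to 1.56) changed sign. Over 487 values from alternatives, 381 lay within the limit set for their result, 106 moved further and 0 reversed a called value. Only the ratios of Ccnb2, Ccna2 and Cdc25b and the median detection difference were called. Sign changes of all other results are therefore not counted as reversed. The differences in detection of Cdk1, Ccnb1, Ccnb2, Ccna2 and Cdc25b stayed above 0. Others changed sign in at least 1 alternative, with ranges of -0.48 to 34.4 points (Ccnf), -8.24 to 16.4 (Cdc25c), -6.30 to 11.3 (Wee1), -21.2 to 22.8 (Pkmyt1) and -11.5 to 8.94 (Plk1). The median pairwise rho ran from 0.10 to 0.25 in control and from 0.19 to 0.26 in RO-3306. No paired analysis was possible because each treatment is 1 sample and no result comes from a test. The cells of a set share only a letter, and their number limits every share given.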
